A study of Homo sapiens with 20 samples.

Results

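Interferon-stimulated genes are switched on when a cell senses interferon, and their proteins block the entry, translation, copying and release of viruses. A list of 44 of these genes was taken by symbol from a table of 24196 human genes measured in tumors of OVCAR8, a human ovarian cancer cell line. All 44 were in the table, and 42 of them had a mean of at least 0.5 FPKM (fragment counts scaled to gene length and library depth), the minimum for testing that 12486 genes of the table met.

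The tumors grew from luciferase-tagged OVCAR8 cells placed in the ovarian fat pad of NSG mice, which lack T, B and NK cells but keep myeloid cells of their own, and were treated with PBS in 4 cases and with sodium gluconate in the other 4. In the efficacy experiment of the study the cells carried sgNC, the control for its knockouts, in both arms. Mice were 6 weeks old at implantation and received PBS or 1 mg/kg sodium gluconate by weekly intraperitoneal injection for 35 days, although the labels of the libraries give no dose, age or guide. The labels describe tumors, while the text of the study speaks of treated cells for these libraries. The deposited table names its libraries only by C or T and a number, and the meaning of these letters, PBS for C, was taken from the axis of a plot in the study and not from the labels. The labels do not say whether each library came from its own mouse, so p-values measure the spread between these libraries, which may be partly technical.

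The depth was unequal. PBS replicate 4 rested on 3953206 fragments, and the other 7 libraries on 39325749 to 46551535 fragments. Its profile stood apart too, with Pearson's r of 0.938 to 0.951 across genes against the other libraries, which had 0.980 to 0.994 with each other. Values without PBS replicate 4 therefore stand beside many of the main ones, and the plot of fold changes gives them for all 42 members tested. Fold changes of single genes outside the list rest on all 8 libraries. Of the 9 markers of ovarian carcinoma and simple epithelium, KRT8, KRT18, KRT7, PAX8 and MSLN were abundant, while KRT19 and MUC16 were under 0.2 FPKM in every tumor. The summed level of this list was 1808 to 2413 FPKM in PBS tumors and 1670 to 2180 FPKM in gluconate tumors.

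Type I and type III interferons bind paired receptors and activate the kinases JAK1 and TYK2, which phosphorylate STAT2 among other targets. STAT2 and IRF9 are parts of ISGF3, the factor that binds the interferon-stimulated response element (ISRE) in the promoters of target genes. Interferon-gamma acts through another receptor and on promoters with the GAS element. Tumor cells can express these genes at a steady level with no virus present.

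Promoter sequences are shown because ISGF3 acts on these genes there and the ISRE can be found by its letters. The windows of RefSeq (GRCh38.p14) run from 250 bases before to 50 bases after the transcript starts that its table lists, which can lie inside the span of the gene as for DDX60, and 35 of the 44 members had at least 1 window. A core ISRE match, GAAANNGAAA on one strand or TTTCNNTTTC on the other, was present in 25 of these 35 members (71.4%), against 4.38% of the 27305 genes with a window. A GAS match, TTCNNNGAA, which reads alike on both strands, was present in 11 of the 35 members (31.4%), against 9.38% of all genes with a window. Such a match is a description of the letters and does not show that a factor was bound. Of the 7 members that were higher in gluconate tumors at an unadjusted p under 0.05, 5 had an ISRE match (ISG15, IFI6, IFITM3, DDX60 and HERC5), IRF9 had a GAS match but no ISRE match in its window, and IFITM2 had no window. The matches of those 5 follow in capitals, with those of IFIT1, a standard target of ISGF3, and EPSTI1, whose promoter has a match although its transcript was close to 0 in these tumors. Each stretch is written 5′ to 3′ on the strand of the gene. They lie at chr1:1013369-1013414 (plus strand) for ISG15, chr1:27672261-27672363 (minus strand) for IFI6, chr11:320871-320927 (minus strand) for IFITM3, chr4:168318781-168318855 (minus strand) for DDX60, chr4:88456979-88457069 (plus strand) for HERC5, chr10:89392492-89392544 (plus strand) for IFIT1 and chr13:42992267-42992306 (minus strand) for EPSTI1.
ISG15: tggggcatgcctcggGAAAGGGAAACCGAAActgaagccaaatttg
IFI6: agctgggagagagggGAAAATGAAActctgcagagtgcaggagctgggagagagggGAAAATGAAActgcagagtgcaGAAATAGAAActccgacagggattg
IFITM3: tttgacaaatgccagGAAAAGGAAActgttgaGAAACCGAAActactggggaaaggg
DDX60: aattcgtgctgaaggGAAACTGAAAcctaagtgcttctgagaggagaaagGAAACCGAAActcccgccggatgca
HERC5: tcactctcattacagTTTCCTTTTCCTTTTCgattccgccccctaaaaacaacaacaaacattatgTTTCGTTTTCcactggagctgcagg
IFIT1: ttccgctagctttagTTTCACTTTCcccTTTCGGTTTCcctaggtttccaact
EPSTI1: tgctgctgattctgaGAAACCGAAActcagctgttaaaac
IFI6 and HERC5 held 3 matches each, and ISG15, IFITM3, DDX60 and IFIT1 held 2. In ISG15, 2 matches share bases and read as 1 run of capitals, as do 2 of the 3 matches in HERC5.

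Interferon-stimulated genes were among the abundant transcripts of these tumors. The mean over the 8 tumors was over 100 FPKM for 8 members, from 10 to 100 FPKM for 22, and under 10 FPKM for 12 of those tested. The share over 100 FPKM was 19.0% of the members tested and 4.73% of all genes tested, and the median of the means was 16.9 FPKM for the members and 6.64 FPKM for all genes tested. The 8 most abundant members were IFITM3, IFI6, ISG15, IFITM2, IFI27, BST2, LGALS3BP and IFITM1, in this order. IFITM3 ranked 77 of 24196 genes. At the other end, CMPK2, a mitochondrial nucleotide kinase, was listed at 0 in 7 tumors and at 0.00545 FPKM in PBS replicate 1, from 1 fragment. EPSTI1, a gene first described in the exchange between epithelium and stroma, reached at most 0.0173 FPKM. Neither was tested.

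Each of the 42 members tested had a positive log2 fold change of gluconate against PBS tumors, where 66.4% of all genes tested did. At an unadjusted p under 0.05 by limma on log2(FPKM + 0.1), 7 members were higher in gluconate tumors and 0 were lower, against 3.13% and 1.49% of all genes tested. The 7 were IFI6, IFITM2, IFITM3, ISG15, IRF9, DDX60 and HERC5. A 2-fold change was not reached by any of these, and 24 genes of the table (0.192%) were higher with both criteria. After Benjamini-Hochberg adjustment over all genes tested, 0 members and 0 genes of the table (0%) had an adjusted p under 0.05 in limma, and the adjusted p of the members ran from 0.740 to 0.825. The median log2 fold change was 0.55 over the members and 0.07 over all genes tested. Without PBS replicate 4, 41 of 42 members were positive (49.1% of all genes), 4 were higher at an unadjusted p under 0.05 (2.85% of all genes), and the median was 0.26. These 4 were IFITM2, ISG15, IRF9 and DDX60. Without PBS replicate 3, 41 of 42 were positive (69.2% of all genes), only IFITM2 passed the unadjusted threshold (2.44% of all genes), and the median was 0.48. Leaving out one of the other PBS tumors moved the count up, with 19 members past that threshold without PBS replicate 1 (7.43% of all genes) and 28 without PBS replicate 2 (5.33% of all genes).

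**Figure D1:**
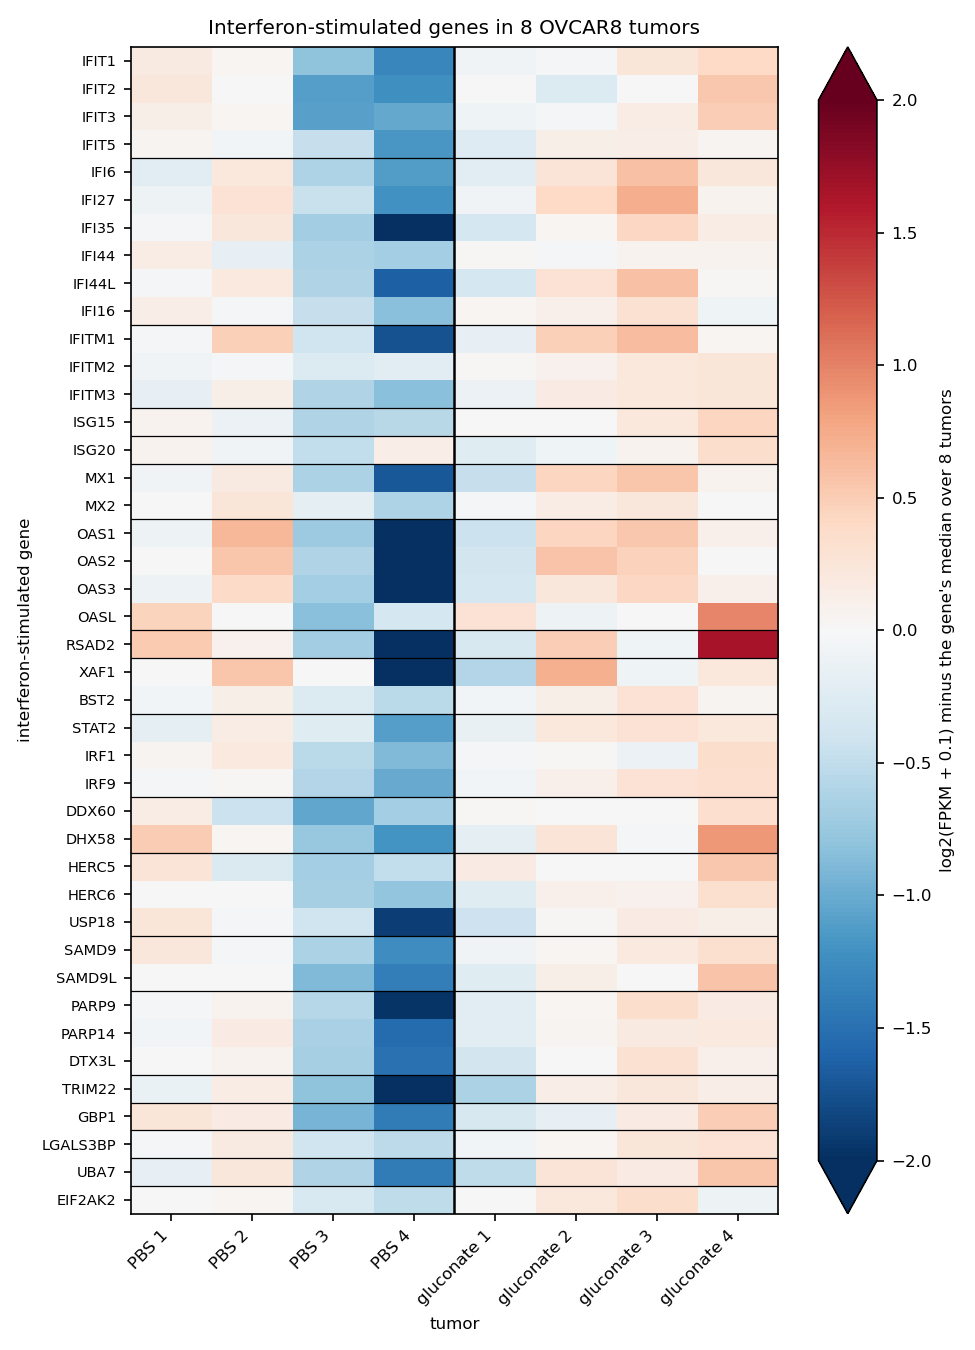
Heat map of 42 interferon-stimulated genes (rows, ordered by role with lines between roles) in 8 tumors (columns, PBS left and gluconate right of the black line). Color gives log2(FPKM + 0.1) minus the median of that gene over the 8 tumors, and values beyond 2 in either direction take the end color. PBS 3 and PBS 4 are the lowest pair for 39 of the 42 genes.

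For nearly every member the lowest values lay in the same pair of PBS tumors. PBS replicates 3 and 4 were the 2 lowest of the 8 tumors for 39 of the 42 members, where 17.7% of all genes tested had this order. The other 3 members were ISG20, USP18 and XAF1. PBS replicate 3, a library of usual depth, was below every gluconate tumor for 40 members (30.3% of all genes) and the lowest of the 7 tumors without PBS replicate 4 for the same number (25.7% of all genes). PBS replicate 4 was below every gluconate tumor for 41 members, but it was so for 64% of all genes tested as well. The pattern was among those already seen in these data when the genes were chosen, so it is described here without a test.

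Measured from the median of each gene over the 8 tumors, the median log2 deviation of the members was -0.61 in PBS replicate 3 and -1.20 in PBS replicate 4. For all genes tested these deviations were 0.00 and -0.26. PBS replicates 1 and 2 were at -0.01 and 0.08, in the range of the gluconate tumors, which were at -0.17, 0.10, 0.21 and 0.22 in replicates 1 to 4. The position of PBS replicate 3 barely depended on scaling, with -0.60 after scaling by median ratios and after quantile normalization. That of PBS replicate 4 moved to -0.94 and -0.98. Gluconate replicate 1 was the lowest gluconate tumor for 33 of the 42 members (33.2% of all genes). In a bulk library, fewer cells that express a gene and less of its RNA per cell cannot be told apart.

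**Figure D2:**
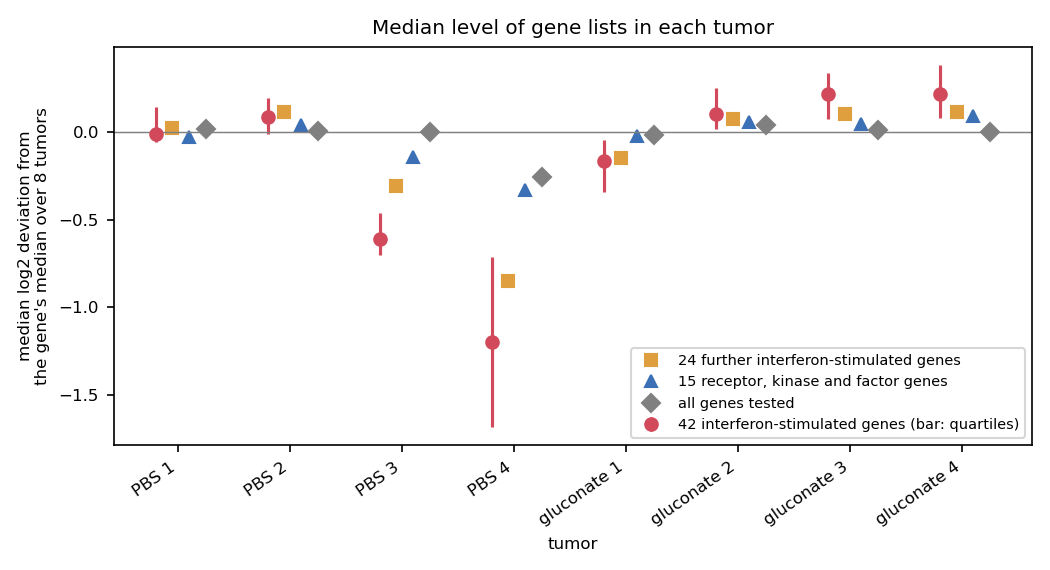
Median log2 deviation of each tumor from the gene's median over 8 tumors, for 42 interferon-stimulated genes (bars show quartiles), 24 further interferon-stimulated genes, 15 receptor, kinase and factor genes, and all genes tested. The members lie at -0.61 in PBS 3, where all genes lie at 0.00, and at -1.20 in PBS 4, where all genes lie at -0.26.

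Leukocyte markers summed to 26.4 to 29.5 FPKM in PBS tumors and 21.0 to 28.2 FPKM in gluconate tumors, mostly from CD68 at 19.7 to 28.0 FPKM, and PTPRC, NKG7, CD14, LYZ and CSF1R were under 0.2 FPKM in every tumor. Endothelial markers reached 0.707 FPKM in sum at most. Fibroblast markers, mostly COL1A1, had sums of 44.4 FPKM (PBS replicate 4), 146 FPKM (PBS replicate 3) and 127 to 188 FPKM (other tumors), and COL1A2 and DCN were near 0 throughout. The summed epithelial markers were at 2413 FPKM in PBS replicate 3, the highest of the 8 tumors, and at 1980 FPKM in PBS replicate 4. Most of this sum is KRT8 and KRT18, which were at their highest in PBS replicate 3 together with EPCAM and PAX8. KRT7 went the other way, with 185 and 124 FPKM in PBS replicates 3 and 4 and 234 to 393 FPKM elsewhere, and EPCAM was at its lowest, 10.3 FPKM, in PBS replicate 4. WT1, of the same list, was at 6.58 FPKM in PBS replicate 4 and at 1.07 to 1.82 FPKM in the other 7 tumors. The part of these cells in the low values of PBS replicates 3 and 4 was not tested. Fragments from mouse cells of the host that were counted on human genes were not tested either.

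Of the ISGF3 genes IRF9 and STAT2, IRF9 passed the unadjusted threshold, and in both PBS replicates 3 and 4 were the lowest tumors. IRF9, the DNA-binding subunit, had 24.5, 25.6, 16.6 and 12.4 FPKM in PBS replicates 1 to 4 and 24.2, 26.9, 30.7 and 31.7 FPKM in gluconate replicates 1 to 4. PBS replicates 1 and 2 fell within the gluconate range. PBS tumors averaged 19.8 ± 6.37 FPKM (SD, n = 4), and gluconate tumors 28.3 ± 3.46 FPKM (SD, n = 4). By limma the log2 fold change was 0.57 (standard error 0.22, unadjusted p = 0.0277), and 0.36 without PBS replicate 4. STAT2 had 6.61 to 15.7 FPKM in PBS and 12.9 to 17.4 FPKM in gluconate tumors, with a log2 fold change of 0.49 (limma unadjusted p = 0.0642), and 0.24 without PBS replicate 4. IRF1, a factor that interferon-gamma induces strongly, had a log2 fold change of 0.35 and a range from 6.09 to 14.5 FPKM over the 8 tumors. Without PBS replicate 4 the log2 fold change of IRF1 was 0.15.

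IFITM proteins sit in the plasma and endosomal membranes and hinder the fusion of virus and cell. IFITM2 was the only member whose groups did not overlap (2.08% of all genes tested were without overlap and higher in gluconate, 1.41% without overlap and lower), with 286, 296, 247 and 258 FPKM in PBS replicates 1 to 4 and 305, 320, 347 and 354 FPKM in gluconate replicates 1 to 4. The gap between the groups was small, from 296 to 305 FPKM, and the groups overlapped after scaling by median ratios. PBS tumors averaged 272 ± 22.9 FPKM (SD, n = 4), and gluconate tumors 331 ± 22.8 FPKM (SD, n = 4). By limma the log2 fold change was 0.29 (standard error 0.08, unadjusted p = 0.00600). The two-sided exact permutation test gave p = 0.0286, the smallest value that 4 against 4 allows. Every gene whose groups do not overlap has this p, so it adds nothing to the lack of overlap. Without PBS replicate 4 the log2 fold change was 0.26 and without PBS replicate 3 it was 0.24, both past the unadjusted threshold. This was the smallest spread among PBS tumors of the 3 family members, and the third smallest log2 fold change of the 42.

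IFITM3, the most abundant member, had 752, 917, 557 and 472 FPKM in PBS replicates 1 to 4 and 777, 943, 980 and 994 FPKM in gluconate replicates 1 to 4. PBS replicate 2 lay among the gluconate tumors, and PBS replicates 3 and 4 were well below them. The log2 fold change was 0.49 (standard error 0.19, limma unadjusted p = 0.0282), and 0.34 without PBS replicate 4. IFITM1 had 176, 251, 137 and 54.2 FPKM in PBS replicates 1 to 4 and 162, 252, 276 and 186 FPKM in gluconate replicates 1 to 4. PBS replicates 1 and 2 lay within the range of the gluconate tumors here. The log2 fold change of 0.67 (limma unadjusted p = 0.135) fell to 0.23 without PBS replicate 4. The 3 genes are close paralogs on chromosome 11, so fragments may have been divided among them in counting.

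ISG15 encodes a ubiquitin-like protein that is attached to other proteins by a chain of enzymes. It had 339, 298, 213 and 222 FPKM in PBS replicates 1 to 4 and 326, 323, 376 and 438 FPKM in gluconate replicates 1 to 4. PBS replicate 1 was above gluconate replicates 1 and 2, so the groups overlapped. PBS tumors averaged 268 ± 60.8 FPKM (SD, n = 4), and gluconate tumors 366 ± 53.9 FPKM (SD, n = 4). The fit of limma gave a log2 fold change of 0.47 (standard error 0.16, unadjusted p = 0.0179), and 0.38 without PBS replicate 4. HERC5, the ligase that attaches ISG15 in human cells, had 47.3, 32.2, 24.5 and 28.0 FPKM in PBS replicates 1 to 4 and 44.3, 39.2, 39.8 and 57.4 FPKM in gluconate replicates 1 to 4. PBS replicate 1 exceeded 3 of the gluconate tumors. This was a log2 fold change of 0.48 by limma (standard error 0.20, unadjusted p = 0.0382), and 0.42 without PBS replicate 4. UBA7, the enzyme that activates ISG15, HERC6, a relative of HERC5, and USP18, the protease that removes ISG15 and dampens the interferon receptor, did not pass the threshold. They ranged from 1.30 to 5.34 FPKM, 8.17 to 17.8 FPKM and 3.09 to 13.8 FPKM over the 8 tumors. Their log2 fold changes were 0.60, 0.43 and 0.49, and 0.30, 0.28 and 0.03 without PBS replicate 4.

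Genes named for interferon induction covered a wide range of levels. IFI6, a membrane protein of the endoplasmic reticulum, had 344, 463, 262 and 185 FPKM in PBS replicates 1 to 4 and 346, 481, 602 and 466 FPKM in gluconate replicates 1 to 4. The highest PBS tumor lay between gluconate replicates 1 and 4. PBS tumors averaged 314 ± 119 FPKM (SD, n = 4), and gluconate tumors 474 ± 105 FPKM (SD, n = 4). In limma its log2 fold change was 0.65 (standard error 0.27, unadjusted p = 0.0359), and 0.42 without PBS replicate 4. IFI27, a small hydrophobic protein related to IFI6, had 254, 335, 202 and 119 FPKM in PBS replicates 1 to 4 and 260, 359, 455 and 288 FPKM in gluconate replicates 1 to 4. As for IFI6, gluconate replicate 3 was the highest and PBS replicate 4 the lowest tumor. Its log2 fold change was 0.65 (limma unadjusted p = 0.0549), and 0.37 without PBS replicate 4. IFI16, a DNA sensor, IFI35, IFI44 and IFI44L had log2 fold changes of 0.37 to 0.74 and did not pass the threshold. Without PBS replicate 4 these fold changes were 0.22 to 0.28. IFI16 ranged from 12.2 to 26.8 FPKM, and IFI44L from 3.22 to 15.4 FPKM. IFI35 ranged from 7.73 FPKM (PBS replicate 4) to 47.5 FPKM (gluconate replicate 3), and IFI44 only from 30.0 to 53.7 FPKM.

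The 4 IFIT genes encode tetratricopeptide proteins that bind viral RNA and block its translation. None of them passed the unadjusted threshold, with log2 fold changes of 0.41 for IFIT5 to 0.61 for IFIT3 and a median of 0.61. IFIT1 had 55.9, 50.9, 28.3 and 19.9 FPKM in PBS replicates 1 to 4 and 47.4 to 65.1 FPKM in gluconate tumors. PBS replicate 3 was thus far below PBS replicates 1 and 2, as it was for IFIT2 with 26.2 FPKM against 66.3 and 55.8 FPKM, and for IFIT3 with 29.0 FPKM against 66.8 and 63.3 FPKM. IFIT5 was lower, at 5.09 to 12.6 FPKM, while IFIT2 reached 82.1 FPKM and IFIT3 86.1 FPKM in gluconate replicate 4. All 4 overlap LIPA on chromosome 10, a gene with a mean of 31.7 FPKM, and it was not stated whether the counting used strand.

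**Figure D3:**
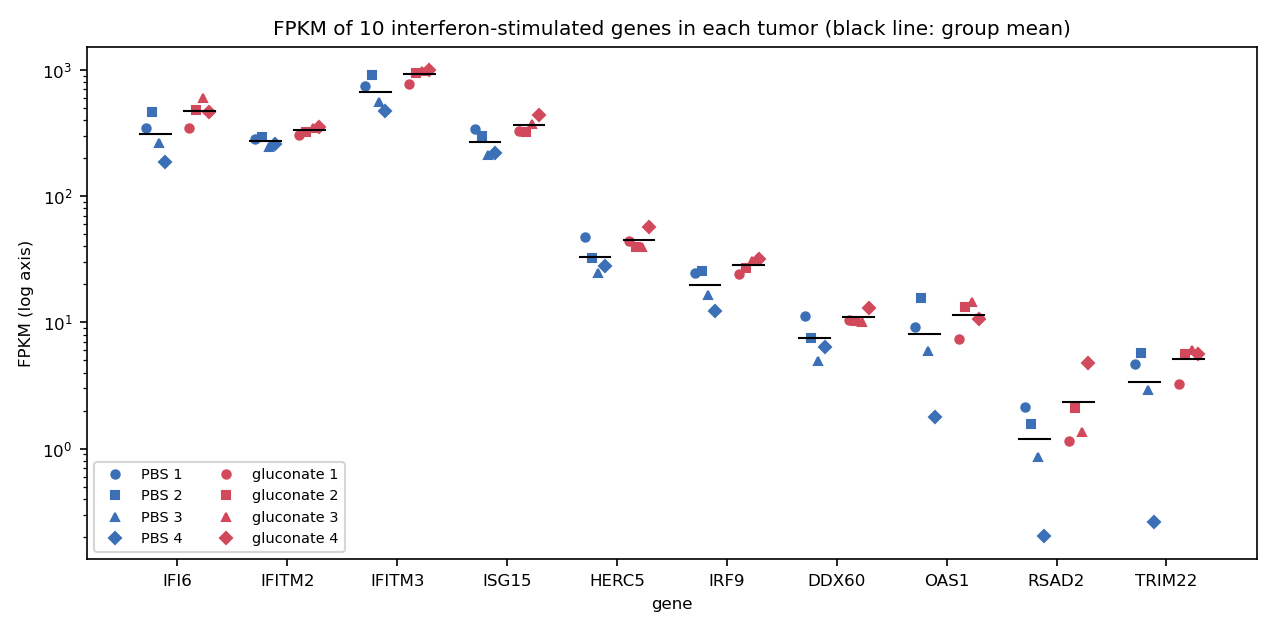
FPKM (log axis) of 10 interferon-stimulated genes in each of 4 PBS tumors (blue) and 4 gluconate tumors (red), with marker shape giving the replicate number and black lines the group means. The groups separate only for IFITM2, by 296 against 305 FPKM, and PBS 4 lies far below the other tumors for OAS1, RSAD2 and TRIM22.

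OAS enzymes make oligoadenylates that activate RNase L, which cuts RNA. OAS1 had 9.19, 15.6, 5.92 and 1.78 FPKM in PBS replicates 1 to 4 and 7.33, 13.3, 14.5 and 10.6 FPKM in gluconate replicates 1 to 4. OAS2 had 15.4, 22.6, 10.1 and 2.85 FPKM in PBS and 12.0, 22.9, 21.2 and 15.4 FPKM in gluconate tumors in the same order. In both genes PBS replicate 2 was among the highest tumors and gluconate replicate 1 among the lowest. Their log2 fold changes were 0.81 (standard error 0.55) and 0.78 (standard error 0.54), with unadjusted p values of 0.177 and 0.184 by limma. Without PBS replicate 4 they were 0.22 and 0.18. OAS3, at 6.31 to 34.5 FPKM, had a log2 fold change of 0.70, and 0.23 without that library. OASL, a relative that lacks the enzyme activity and promotes RNA sensing, differed in its tumors, with 61.0 FPKM in gluconate replicate 4 against 28.8 to 37.8 FPKM in the other gluconate tumors and 17.2 to 42.2 FPKM in PBS tumors.

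ISG20, an exonuclease that degrades RNA, had the smallest log2 fold change of the 42, at 0.11 (standard error 0.17, limma unadjusted p = 0.526). It had 4.62, 4.17, 3.08 and 4.78 FPKM in PBS replicates 1 to 4 and 3.70, 4.13, 4.58 and 5.60 FPKM in gluconate replicates 1 to 4. PBS replicate 4 was not low for this gene, unlike for the other 41 members, while PBS replicate 3 was again the lowest tumor. Without PBS replicate 3 its log2 fold change was -0.020.

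RSAD2 encodes viperin, which makes a nucleotide that ends viral RNA chains. It had 2.16, 1.57, 0.862 and 0.204 FPKM in PBS replicates 1 to 4 and 1.15, 2.09, 1.37 and 4.79 FPKM in gluconate replicates 1 to 4. Gluconate replicate 4 was the highest by a wide margin, and PBS replicate 4 held 3 fragments, with a 95% Poisson interval of 0.0421 to 0.596 FPKM that covers counting error only. The log2 fold change of 1.04 (standard error 0.63, limma unadjusted p = 0.132) was the second largest of the 42 and was 0.45 without PBS replicate 4.

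Dynamin-like and guanylate-binding GTPases assemble into polymers that hinder viruses and other pathogens inside cells. MX2 was the steadiest of them, with 16.9, 20.1, 15.1 and 11.1 FPKM in PBS replicates 1 to 4 and 16.5, 19.0, 20.0 and 17.2 FPKM in gluconate replicates 1 to 4. PBS replicate 2 was its highest tumor. The log2 fold change was 0.23 (standard error 0.16, limma unadjusted p = 0.195), the second smallest of the 42, and 0.07 without PBS replicate 4. MX1 varied more, from 3.99 FPKM (PBS replicate 4) to 19.4 FPKM (gluconate replicate 3), with a log2 fold change of 0.70, and 0.32 without PBS replicate 4. GBP1 ranged from 9.95 to 37.2 FPKM, with 0.53, and 0.22 without that library. Neither passed the threshold.

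Helicases that recognize viral RNA include DDX60 and DHX58. DDX60 had 11.3, 7.54, 4.95 and 6.38 FPKM in PBS replicates 1 to 4 and 10.5, 10.3, 10.1 and 13.0 FPKM in gluconate replicates 1 to 4. PBS replicate 1 was above 3 gluconate tumors, and the other PBS tumors were below all of them. PBS tumors averaged 7.55 ± 2.73 FPKM (SD, n = 4), and gluconate tumors 11.0 ± 1.36 FPKM (SD, n = 4). By limma the log2 fold change was 0.59 (standard error 0.22, unadjusted p = 0.0239), and 0.54 without PBS replicate 4. DHX58, at 0.571 to 2.69 FPKM, had 0.58 and EIF2AK2, the kinase that halts translation when RNA activates it, had 0.31 at 11.2 to 20.4 FPKM. Both missed the threshold. PARP14, an ADP-ribosyltransferase, and the partners PARP9 and DTX3L, which act as 1 complex, had log2 fold changes of 0.57, 0.72 and 0.54 and also missed it. Without PBS replicate 4 these 3 fold changes were 0.23, 0.27 and 0.21. Over the 8 tumors PARP14 ranged from 10.3 to 34.6 FPKM, PARP9 from 1.67 to 8.74 FPKM and DTX3L from 6.67 to 23.6 FPKM. PARP9 and DTX3L overlap on chromosome 3, so their fragments may not be fully separate.

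Among the other effectors, TRIM22, a ubiquitin ligase that restricts viral transcription, had the largest log2 fold change of the 42. It had 4.68, 5.71, 2.89 and 0.263 FPKM in PBS replicates 1 to 4 and 3.26, 5.65, 6.01 and 5.61 FPKM in gluconate replicates 1 to 4. The low value in PBS replicate 4 rested on 3 fragments, with a 95% Poisson interval of 0.0542 to 0.768 FPKM, and the highest PBS tumor was 21.7 times as high (7.43 to 105 times with that interval). The log2 fold change was 1.12 (standard error 0.76, limma unadjusted p = 0.171), and 0.23 without that library. XAF1, a binding partner of an inhibitor of apoptosis, had 2.72, 4.09, 2.77 and 0.465 FPKM in PBS replicates 1 to 4 and 1.80, 4.56, 2.58 and 3.21 FPKM in gluconate replicates 1 to 4. PBS replicate 3 was not low for this gene, and the log2 fold change of 0.51 (limma unadjusted p = 0.391) turned to -0.12 without PBS replicate 4.

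BST2, or tetherin, holds budding virus at the cell surface, and LGALS3BP is a secreted glycoprotein that binds galectin. BST2 had 229, 257, 197 and 162 FPKM in PBS replicates 1 to 4 and 229, 256, 290 and 246 FPKM in gluconate replicates 1 to 4. LGALS3BP had 186, 216, 144 and 132 FPKM in PBS and 183, 194, 224 and 232 FPKM in gluconate tumors in the same order. In both genes PBS replicates 1 and 2 lay within or beside the gluconate range and PBS replicates 3 and 4 below it. Their log2 fold changes were 0.29 and 0.32, with unadjusted p values of 0.0645 and 0.0685 by limma, and were 0.17 and 0.21 without PBS replicate 4. SAMD9 and SAMD9L, neighbors on chromosome 7 that restrict poxviruses, ranged from 3.01 to 9.12 FPKM and from 1.31 to 5.30 FPKM. Their log2 fold changes of 0.54 and 0.67 did not pass the threshold.

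**Figure D4:**
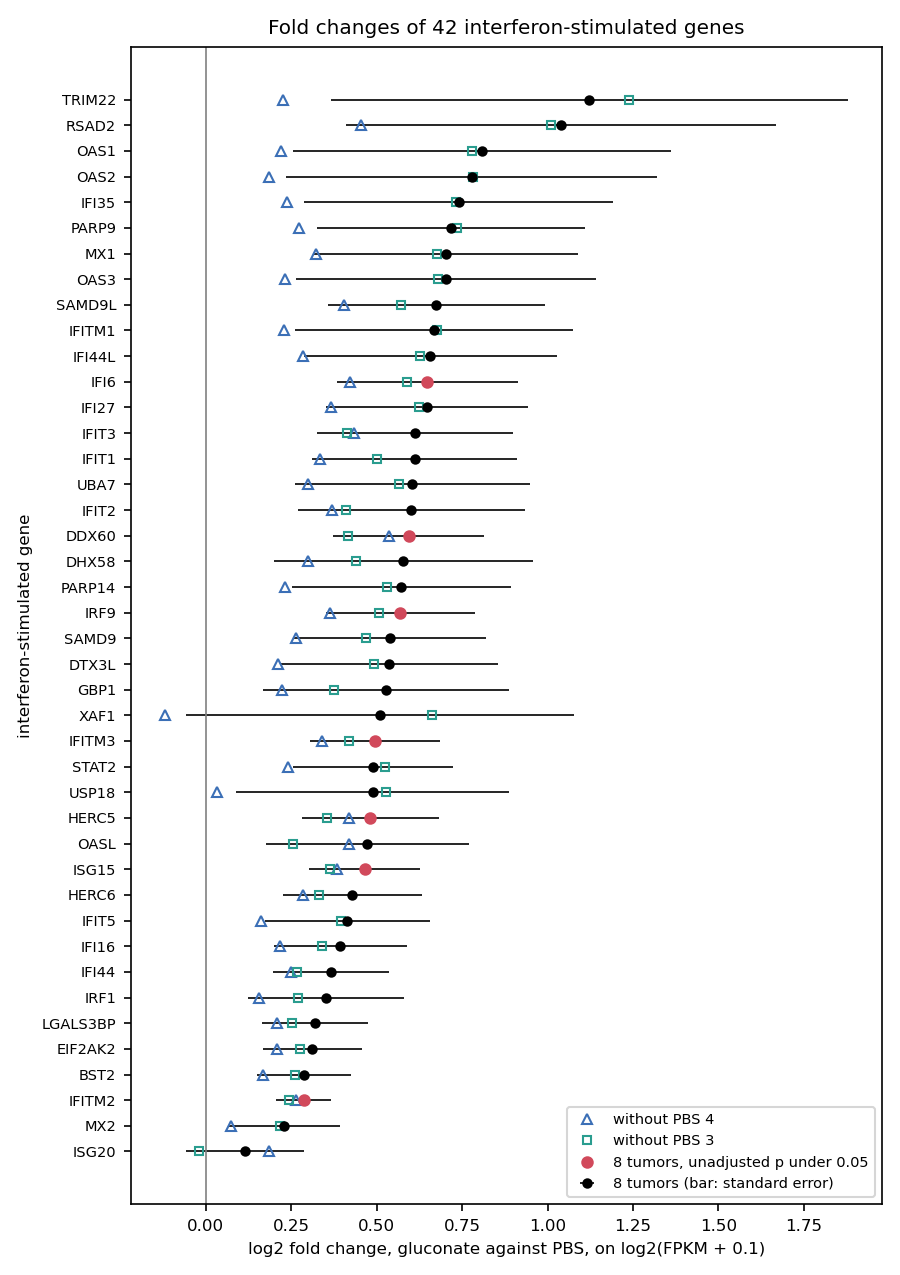
Log2 fold change of gluconate against PBS tumors on log2(FPKM + 0.1) for 42 interferon-stimulated genes, with bars for the standard error of the fit to 8 tumors and open symbols for the value without PBS 4 or without PBS 3. Red points mark the 7 genes at an unadjusted p under 0.05, and the median falls from 0.55 to 0.26 without PBS 4.

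The spread between PBS tumors varied among the members. The 5 largest ratios of the highest to the lowest PBS tumor were 21.7 for TRIM22, 10.6 for RSAD2, 8.79 for XAF1, 8.78 for OAS1 and 7.94 for OAS2. A wide spread enters the standard error of the test, so the p values of members chosen for it tell nothing further about them. All 5 were lowest in PBS replicate 4, where they rested on 3 to 69 fragments. Over the 7 tumors without that library, the ratio of the highest to the lowest tumor had a median of 2.07 over the members and ran from 1.33 for MX2 to 5.55 for RSAD2. Its median over all genes tested was 1.32.

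The members did not all peak in the same tumor. The highest of the 8 tumors was gluconate replicate 4 for 21 members and gluconate replicate 3 for 15, where 15.2% and 8.87% of all genes tested peaked in these tumors. Gluconate replicate 4 exceeded replicate 3 for 22 members (52.4%), near the 46.9% of all genes tested, led by RSAD2, OASL and DHX58 with log2 differences of 1.74, 0.98 and 0.91. It was below replicate 3 for the other 20, with -0.66 for IFI27, -0.57 for IFITM1 and -0.56 for IFI44L at the end. Of the 22 members higher in gluconate replicate 4, 12 (54.5%) were also higher in PBS replicate 1 than 2, near the 53.6% of all such genes tested. Of the 20 lower ones, 16 (80.0%) were also lower in PBS replicate 1, where 48.9% of all such genes were. Both differences had the same sign in 66.7% of the members and 51.1% of all genes tested. Across the 42 members Pearson's r between the differences was 0.64 and Spearman's rho 0.61, and across all genes tested they were 0.06 and 0.06. Genes are not independent replicates and the 4 libraries are shared by every point, so this describes these tumors only, and the pairs of tumors were picked after the values were seen.

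**Figure D5:**
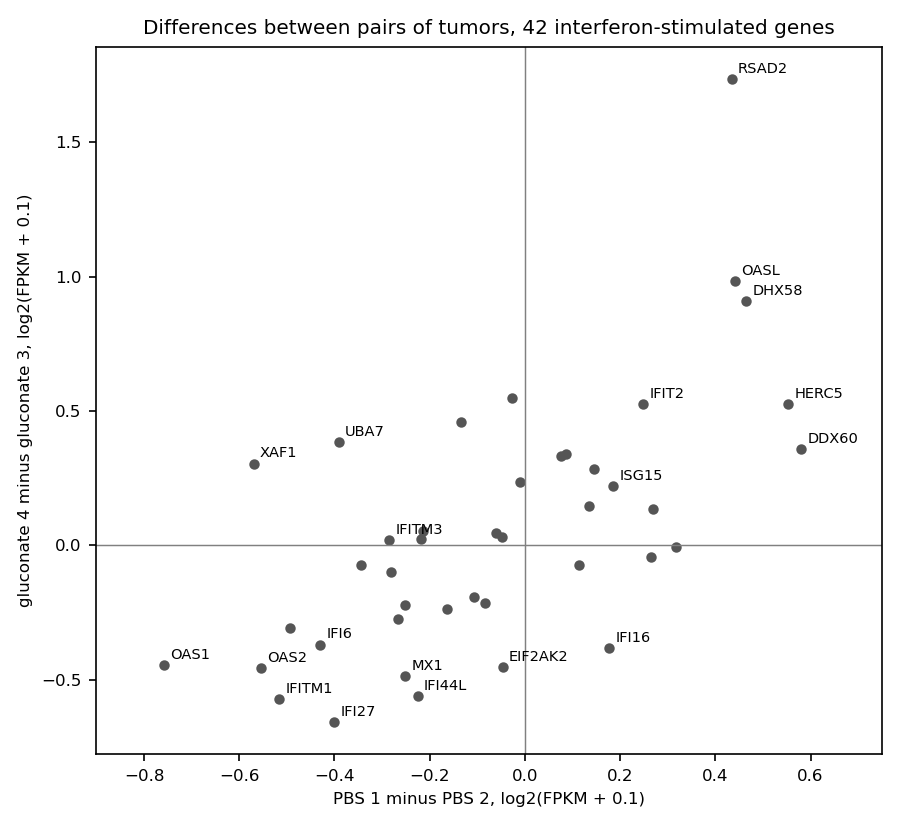
Difference between gluconate 4 and gluconate 3 (vertical axis) and between PBS 1 and PBS 2 (horizontal axis), both in log2(FPKM + 0.1), with 1 point for each of 42 interferon-stimulated genes. RSAD2, OASL and DHX58 lie high in both, and OAS1, OAS2, IFITM1 and IFI27 lie low in both.

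Other genes of the pathway were read from lists of their own. Among 15 receptor, kinase and factor genes, 13 had a positive log2 fold change (66.4% of all genes tested), 3 were higher at an unadjusted p under 0.05 (3.13%), 0 were lower (1.49%), and the median was 0.14, or 0.11 without PBS replicate 4. The 3 were the receptor chains IFNGR1, IFNGR2 and IL10RB. IL10RB, a chain shared by the type III interferon receptor, had 8.27, 8.32, 7.49 and 6.65 FPKM in PBS replicates 1 to 4 and 8.46, 9.78, 10.3 and 12.5 FPKM in gluconate replicates 1 to 4. Its groups did not overlap, with a log2 fold change of 0.40 (standard error 0.13, limma unadjusted p = 0.0126). IFNGR1, the ligand-binding chain of the interferon-gamma receptor, ranged from 9.22 to 13.0 FPKM in PBS and from 13.1 to 16.0 FPKM in gluconate tumors, also without overlap, and its log2 fold change was 0.34 (limma unadjusted p = 0.0169). IFNGR2, its partner chain, had 0.24 (limma unadjusted p = 0.0413). IFNAR1, a chain of the type I receptor, was the third gene of the list without overlap (2.08% of all genes tested), with a highest PBS value of 11.1 FPKM and a lowest gluconate value of 11.3 FPKM, and its log2 fold change of 0.20 did not pass the threshold. JAK1, the most abundant kinase of the list, had 0.02. The feedback inhibitors SOCS1 and SOCS3 were the only negative ones, with -0.04 and -0.28, and neither passed the threshold.

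Of 25 further interferon-stimulated genes, 24 were tested, and all 24 had a positive log2 fold change (66.4% of all genes tested) with a median of 0.29, or 0.12 without PBS replicate 4. At an unadjusted p under 0.05, 1 of them was higher and 0 were lower, a share near the 3.13% and 1.49% of all genes tested. This gene was PARP12, which modifies proteins with ADP-ribose, with a log2 fold change of 0.37 (limma unadjusted p = 0.0451). LY6E, a surface protein of the LY6 family, and ADAR, an RNA-editing enzyme, were the most abundant, with log2 fold changes of 0.30 and 0.30 that did not pass. LY6E had 349, 462, 307 and 282 FPKM in PBS replicates 1 to 4 and 352 to 489 FPKM in gluconate tumors. ADAR had 39.0, 42.3, 33.0 and 22.7 FPKM in PBS replicates 1 to 4 and 37.7 to 45.4 FPKM in gluconate tumors. PBS replicates 3 and 4 were the 2 lowest tumors for 19 of these 24 genes and for 8 of the 15 receptor, kinase and factor genes (17.7% of all genes tested). The median deviation of these genes was -0.31 in PBS replicate 3 and -0.85 in PBS replicate 4. For the 15 receptor, kinase and factor genes it was -0.14 and -0.33, beside 0.00 and -0.26 for all genes tested.

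The members were each compared with the mean of their log2(FPKM + 0.1) in each tumor. Pearson's r with that mean, which includes the gene itself for members, was over 0.9 for 32 of the 42 members with 8 tumors, where 8.31% of all genes tested reached it. With the 7 tumors other than PBS replicate 4 it was over 0.9 for 16 members, and for 2.22% of all genes tested. The lowest values were 0.25 for ISG20 with 8 tumors and 0.38 for XAF1 with 7. Among genes outside the list, the 5 most like the mean over 8 tumors were PKD2 (r = 0.99), CASP1, CPE, SLC1A4 and SIPA1L2, and their r without PBS replicate 4 was 0.96 to 0.98. These r values describe 8 libraries, of which PBS replicate 4 has the greatest weight.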

How the data were processed

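Polyadenylated RNA of 8 tumors was sequenced in pairs of 150-base reads. The authors deposited FPKM values for 24196 human genes, made against GRCh38 per the submitters' processing notes. The aligner, counter, annotation and strand setting are not given in the sources used here. In addition, 12 libraries of knockout and control cells were not analysed here.

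The FPKM values of a gene fell on steps of whole fragments (within 0.001 of a whole number) in 100% of the values above 0, which gave the depth of each library and the fragments for 95% Poisson intervals and for fits with voom. These cover counting error only.

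Gluconate and PBS tumors were compared with limma 3.58.1 (R 4.3.3), with a mean-variance trend and a two-sided test on log2(FPKM + 0.1) for the 12486 genes with a mean of at least 0.5 FPKM, and Benjamini-Hochberg adjustment over all of them. The code was tested on simulated data. Fold changes on this scale understate those of low genes. Exact permutation tests ran over the 70 splits of 8 libraries. The members, gene lists and markers were chosen with earlier results of these data known, and no list was tested as a set. The values of 1 gene counted in a list are not reported here.

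Values in every tumor were given for members at an unadjusted p under 0.05 or without overlap, the 8 most abundant, the 3 highest and 3 lowest log2 fold changes, and the 5 largest ratios between PBS tumors. The others were given by range, by single values or by log2 fold change. Promoters and gene positions were taken from RefSeq (GRCh38.p14), matched by symbol for all 44 members. Alternatives were another pseudocount, filter, scaling, test or block, each library left out and, chosen after seeing the data, voom. Python 3.11.15 was used for the rest.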

Additional observations from a re-analysis of the deposited data

Results flagged for a closer look

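Within each group of 4 libraries, the gap of the most distant library to its nearest neighbor was compared with the range of the group. Of 88 groups examined, 5 were past the 95% critical value of Dixon, where chance gives about 4.4.

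For DDX60, gluconate replicate 4 had 13.0 FPKM and the other gluconate tumors 10.1 to 10.5 FPKM. STAT2 was at 12.9 FPKM in gluconate replicate 1, with 16.5 to 17.4 FPKM in the rest of that group. TRIM22 stood at 3.26 FPKM in the same tumor and at 5.61 to 6.01 FPKM in the other 3.

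The remaining cases concern the depth of PBS replicate 4. It held 3953206 fragments, against 39895393 to 46551535 in the other PBS tumors, and 15514 genes above 0, against 20014 to 20117.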

How the results depend on the processing

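Across the alternatives, 0 members passed an adjusted p under 0.05 in limma, and 0 were lower at an unadjusted p under 0.05. The count of members higher was 7 with all libraries (3.13% of all genes tested under that setting), 1 with an unmoderated test (2.26%), 9 after quantile normalization (3.37%), and 7 and 6 with voom without and with library weights (2.69% and 2.56%). Leaving out 1 library gave 1 to 28 such members: 19 without PBS replicate 1 (7.43%), 28 without PBS replicate 2 (5.33%), 1 without PBS replicate 3 (2.44%), 4 without PBS replicate 4 (2.85%) or gluconate replicate 3 (1.32%), and 2 without gluconate replicate 4 (1.27%). With a 2-fold change as well, the count was 0 to 3 over the left-out libraries, with 3 without PBS replicate 2. Members without overlap numbered 0 after scaling by median ratios and 1 to 7 over the left-out libraries, with 7 without gluconate replicate 1 (5.13%) and 5 without PBS replicate 1 (8.34%) or 2 (4.93%). The median log2 fold change ran from 0.26 to 0.72 over the left-out libraries and was 0.24 with voom and library weights. ISG20 turned to -0.020 without PBS replicate 3 (-0.020 to 0.20 over the left-out libraries), and XAF1 to -0.12 without PBS replicate 4 (-0.12 to 0.84) and -0.17 with voom and library weights. The cause was not tested. Over all genes, 67.8% of the calls at an unadjusted p under 0.05 were higher in gluconate, and 51.0% were so after scaling by median ratios, 55.4% after quantile normalization and 45.9% without PBS replicate 4.

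Same-numbered libraries did not deviate together, with correlations of -0.18, 0.08, 0.17 and -0.06, and 2 of 4 libraries correlated best with their own number, so the numbers were not used as pairs. With the replicate number as a block, 8 members were higher, with IRF9 no longer past the threshold (unadjusted p = 0.0504 by limma) and IFI27 and EIF2AK2 past it, and over all genes 303 were higher and 167 lower, against 391 and 186. In PBS replicate 4, where the depth was lowest, TRIM22 and RSAD2 rested on 3 fragments each.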
